A study of Mus musculus with 8 samples.

Results

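The tripartite motif (TRIM) genes were followed in mouse bone marrow-derived macrophages (BMDMs) after 6 h of cytokine and endotoxin treatment. A member was any gene named Trim followed by a number and at most 1 letter, on a probe set of the Affymetrix mouse gene array that the platform annotation ties to that symbol alone. Under this rule, which uses no measured value beyond picking the brightest probe set of a gene, 58 of the 19938 named genes were TRIM members, and each had a single probe set. Total RNA was measured on 8 arrays, 2 for each of 4 groups. One group stayed untreated, and the others received IFN gamma/LPS, IL4/IL13, or the mixture LPS/IL4/IL13. IFN gamma is the type II interferon, LPS is bacterial endotoxin, and IL4 and IL13 are the cytokines of alternative macrophage activation. Neither LPS nor IFN gamma was given by itself, so LPS/IL4/IL13 differs from IFN gamma/LPS both in lacking IFN gamma and in holding IL4 and IL13. The labels give no mouse strain, dose or genotype. They also leave unsaid whether both arrays in a group represent separate cultures or mice, and every p-value therefore measures only the spread between these arrays, which may be technical.

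TRIM proteins carry a RING finger, 1 or more B-boxes and a coiled coil, followed in most members by a further domain, and many act as E3 ubiquitin ligases. In macrophages several are known as restriction factors or as regulators of the sensors of viral nucleic acid, and a number are interferon-stimulated genes. Other members work in muscle, neurons or chromatin. LPS signals through Toll-like receptor 4, which leads to NF-kB activity and to the release of type I interferon, and IFN gamma signals through a receptor of its own.

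The deposited values are used as log2 signal, so a difference of 1 is a 2-fold change, and changes are compared between groups within a gene. A gene's own level is set only against the median or a percentile of all named genes, to say whether its probe set is dim. Array medians lay between 6.12 and 6.20, and the 2 arrays of a group correlated over all named genes at Pearson's r from 0.9939 to 0.9974. The median named gene stood above untreated by 0.10 under IFN gamma/LPS, 0.07 under IL4/IL13 and 0.09 under LPS/IL4/IL13. By their mean over the 8 arrays, all 10 macrophage markers lay above the median level of the named genes, with array means of 11.64 to 11.69 untreated, 11.40 to 11.42 under IFN gamma/LPS, 11.34 in both IL4/IL13 arrays and 11.38 to 11.42 under LPS/IL4/IL13. Of these 10 markers 3 were called higher and 6 lower than untreated in each group with LPS, and 1 higher and 4 lower under IL4/IL13. Cebpa, a transcription factor of the myeloid lineage, fell furthest, from a group mean of 8.74 untreated to 6.26 under LPS/IL4/IL13, at the 49.8th percentile of named genes. The part of these markers in the TRIM differences was not tested. The dendritic cell markers had 1 of 6 above that median, with array means of 5.96 to 6.02 untreated, 6.47 to 6.54 under IFN gamma/LPS, 6.36 to 6.38 under IL4/IL13 and 6.37 in both LPS/IL4/IL13 arrays. Under IFN gamma/LPS 3 of the 6 were called higher (50%, against 23.6% of all named genes). Xcr1 rose most there, from a group mean of 5.620 untreated to 7.870. The fibroblast markers had 3 of 5 above that median, and their array means were 6.54 to 6.57 untreated, 6.50 to 6.66 under IL4/IL13 and 6.92 to 7.01 in the groups with LPS. Of the 5, 2 were called higher under IFN gamma/LPS (40%) and 1 under LPS/IL4/IL13 (20%), against 23.6% and 20.3% of all named genes. Dcn rose most, from a group mean of 5.800 untreated to 7.165 and 7.545 in that order. Col1a1 read 7.885 untreated, 7.820 under IFN gamma/LPS and 7.845 under LPS/IL4/IL13. B cell markers had 0 of 3 above the median, T and NK cell markers 2 of 6, and neutrophil markers 2 of 6. In RNA from a whole culture, fewer cells of a type and less RNA per cell cannot be told apart.

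The TRIM family split in both groups that received LPS. Most antiviral and sensing members rose, and most regulators of cytokine signalling and 3 of 4 chromatin factors fell. In no comparison did 17 of the 58 members pass, and the share of all named genes that passed in none was not taken. The role lists were chosen with earlier results of these data known, so the split by role is described and was not tested. Under IFN gamma/LPS, 20 members (34.5%) were higher than untreated and 17 (29.3%) were lower (limma, Benjamini-Hochberg adjusted p under 0.05), where 23.6% and 28.4% of all named genes were. Members called at 2-fold or more numbered 10 higher (17.2%) and 8 lower (13.8%), against 5.84% and 11.2% of all named genes. Under LPS/IL4/IL13, 19 members (32.8%) were higher and 16 (27.6%) lower, against 20.3% and 25.4%. At 2-fold or more these counts were 8 (13.8%) and 5 (8.62%), against 5.18% and 8.71%. Under IL4/IL13 alone, 2 members (3.45%) were higher and 16 (27.6%) lower, against 7.83% and 12.3% of all named genes, and 0 passed at 2-fold, where 1.07% of named genes were higher and 1.37% lower. The share of members that fell in the groups with LPS was thus near that of all genes, and the share that rose at 2-fold was above it. The median log2 change over the 58 members was 0.18 under IFN gamma/LPS, -0.06 under IL4/IL13 and 0.13 under LPS/IL4/IL13. These 3 comparisons share the untreated arrays and are set side by side only.

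**Figure D1:**
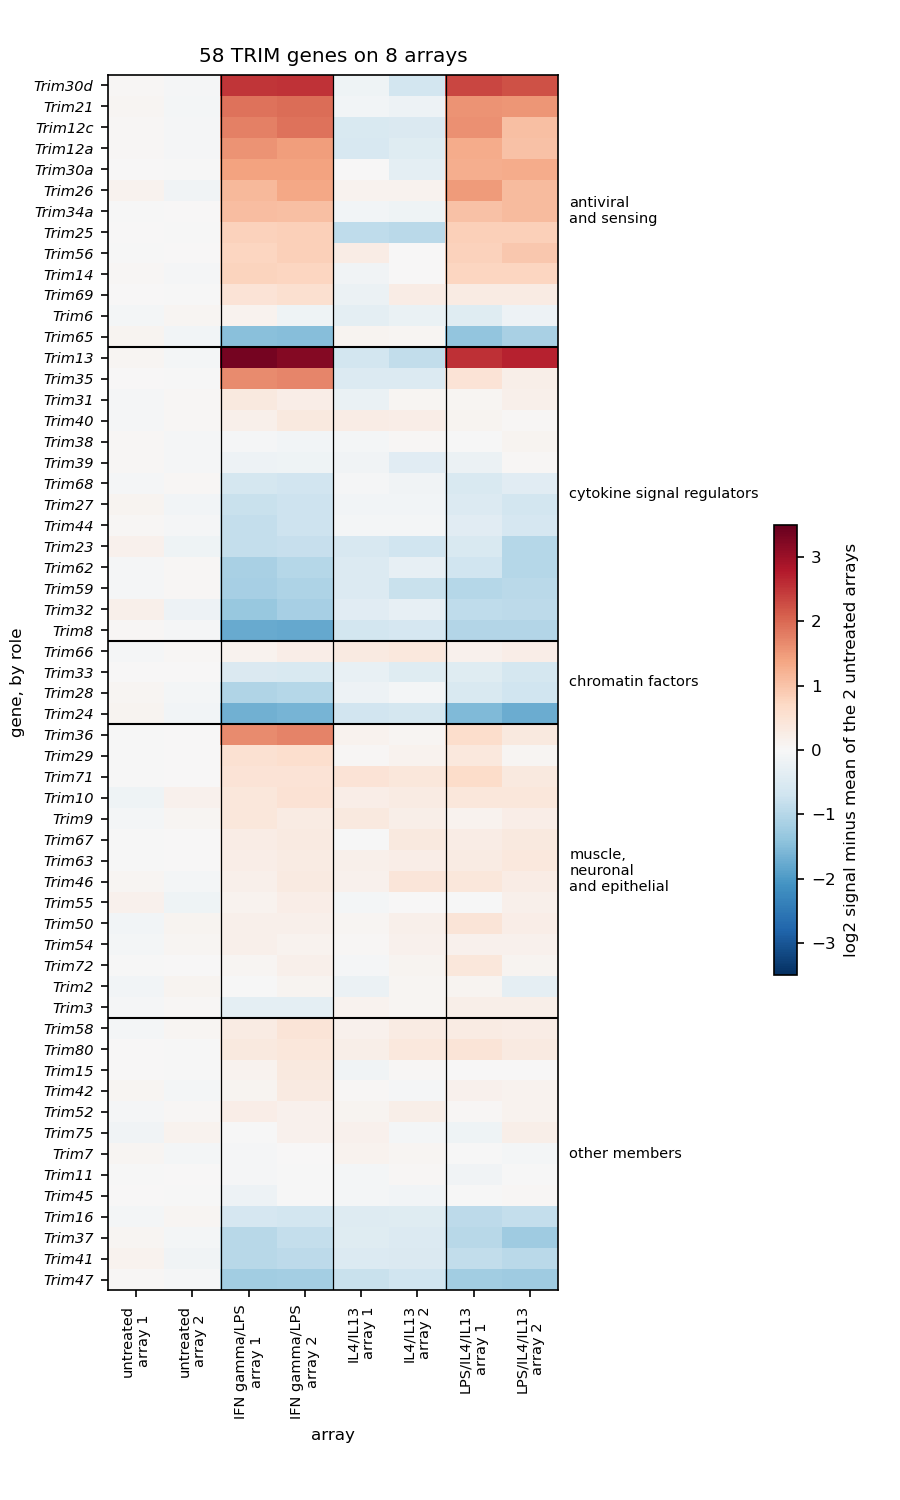
Log2 signal of the 58 TRIM genes (rows, by role) on the 8 arrays (columns), each minus the mean of the 2 untreated arrays; red is higher and blue lower. Trim13 and Trim30d are the darkest red in both groups with LPS, Trim8 and Trim24 the darkest blue under IFN gamma/LPS, and the IL4/IL13 columns hold pale colours only.

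Of the 13 measured antiviral and sensing members, 11 rose (84.6%, against 23.6% of all named genes), 1 fell and 1 did not pass under IFN gamma/LPS, with a median log2 change of 1.07 against 0.10 over all named genes. Under LPS/IL4/IL13, 10 rose (76.9%, against 20.3%) and 1 fell. Because 7 of the risers share a sequence element in their promoter windows, defined below, the sequences are given before the values. The interferon-stimulated response element (ISRE) is the DNA element bound by factors of the IRF family. Its core was searched as GAAA, 2 bases of any kind and GAAA again, on both strands of RefSeq promoter windows (GRCm38.p6), from 250 bases before to 50 bases after each annotated start. A window was at hand for 46 of the 58 members. The core lay in the windows of 8 members (17.4%), against 3.99% of all 27025 genes with a window and 3.44% of all 32851 windows. They were Trim12a, Trim12c, Trim21, Trim26, Trim30a, Trim30d, Trim34a and Trim2. The first 7 rose under IFN gamma/LPS, and Trim2 passed in no comparison. By its mean over the 8 arrays the Trim2 probe set is dim, at the 17.9th percentile of named genes. The other 7 lie from the 64.3rd (Trim34a) to the 99.4th (Trim30a). A missing call at so dim a probe set cannot show that Trim2 does not change. In all, 7 of the 16 risers with a window held the core, 0 of the 12 that fell and 1 of the 18 not called. The same split was not made over all named genes. Trim34a, Trim12a, Trim12c, Trim30a and Trim30d lie in 1 run of genes on chromosome 7, and some are close copies. The 7 are therefore not separate cases. The stretches below, 1 for each of the 8 genes, are shown because they carry that core, and Trim2 is included as the gene that holds it and was not called. They run 5′ to 3′ on the gene's strand, with the cores in capitals, read as copies of GAAA around 2 free bases or, on the opposite strand, as copies of TTTC.
Trim30d: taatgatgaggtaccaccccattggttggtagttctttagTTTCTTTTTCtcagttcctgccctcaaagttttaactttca
Trim30a: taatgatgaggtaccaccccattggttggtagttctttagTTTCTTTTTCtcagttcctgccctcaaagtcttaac
Trim12c: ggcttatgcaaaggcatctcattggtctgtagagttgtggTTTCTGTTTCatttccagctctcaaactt
Trim12a: tgtggTTTCTGTTTCatttc
Trim34a: tggagTTTCAGTTTCttttc
Trim21: gagagGAAACTGAAAGTGAAAtttgg
Trim26: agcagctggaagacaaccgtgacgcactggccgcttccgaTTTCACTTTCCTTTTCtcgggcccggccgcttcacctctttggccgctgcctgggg
Trim2: tttggTTTCCTTTTCtctaa

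The Trim30d stretch is chr7:104507850-104507930 on the minus strand and ends 1 base before the annotated start. The Trim30a stretch, chr7:104465194-104465269 on the minus strand, equals it at 75 of 76 compared bases. The Trim12c stretch (chr7:104353350-104353418, minus strand) and the Trim12a stretch (chr7:104315471-104315490, minus strand) share 20 of 20 compared bases. The Trim34a stretch is chr7:104244462-104244481 on the plus strand, the Trim21 stretch is chr7:102565449-102565474 on the minus strand, the Trim26 stretch is chr17:36836946-36837041 on the plus strand, and the Trim2 stretch is chr3:84212796-84212815 on the minus strand. Trim21 and Trim26 each hold 2 overlapping cores. Trim30a, which has a second annotated start, holds the core at both starts. The longer form, a core followed by CT, which always holds a core, lay in the windows of Trim30a, Trim30d and Trim34a, against 0.303% of all genes. Other elements were searched in the same windows on both strands. The STAT6-type element, TTC and GAA around 4 free bases, lay in 6 members (13.0%, against 8.01% of all genes) and the NF-kB consensus in 0 (against 5.14%). A match gives the letters only and shows no binding.

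**Figure D2:**
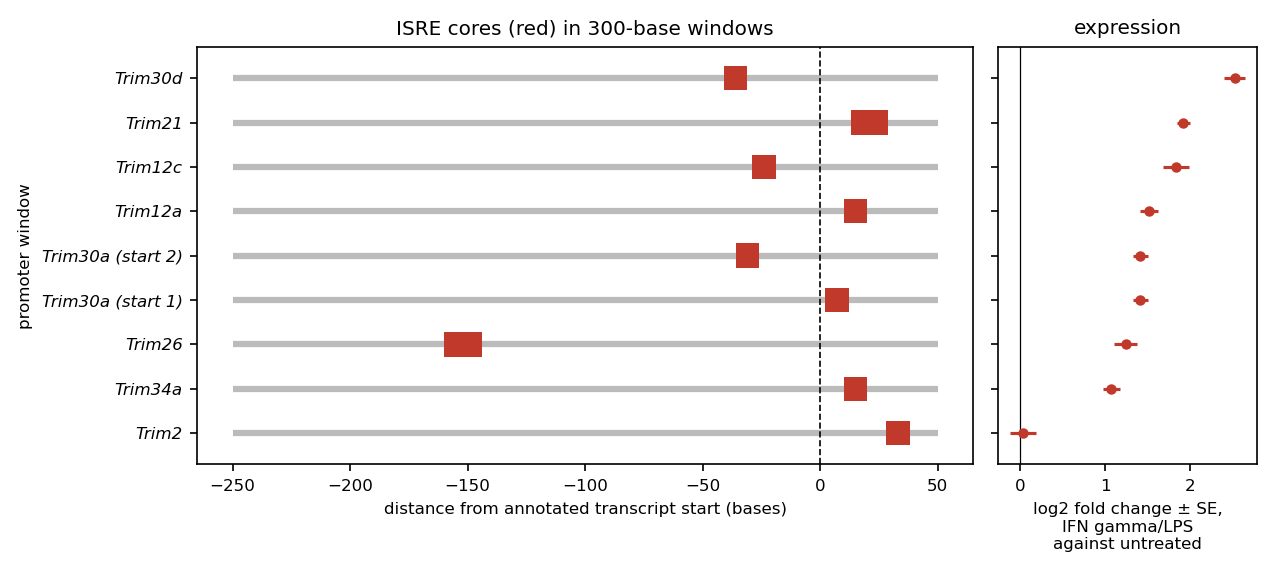
Left, the ISRE cores (red boxes) in 9 RefSeq promoter windows of 8 TRIM genes, by distance in bases from the annotated transcript start (dashed line); Trim30a has 2 annotated starts. Right, the log2 fold change of the same gene under IFN gamma/LPS with its standard error (n = 2 arrays per group). The core lies within 50 bases of the start in each gene but Trim26, and Trim2 alone, on a dim probe set, has a fold change near 0.

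Trim30d and Trim30a belong to a group of close copies in the mouse genome, and the Trim30a protein is known as an interferon-induced brake on Toll-like receptor signalling. Trim30d read 9.47 and 9.38 in the untreated arrays, 11.93 and 11.96 under IFN gamma/LPS, 9.28 and 8.79 under IL4/IL13, and 11.77 and 11.66 under LPS/IL4/IL13. Trim30a read 11.48 and 11.44 untreated, 12.87 and 12.88 under IFN gamma/LPS, 11.47 and 11.12 under IL4/IL13, and 12.73 and 12.77 under LPS/IL4/IL13. For both genes all 4 arrays with LPS stood above the other 4. Trim30d rose by 2.52 ± 0.12 (log2 fold change ± SE, n = 2 arrays per group; 5.74-fold) under IFN gamma/LPS and by 2.29 ± 0.12 (4.89-fold) under LPS/IL4/IL13. Trim30a rose by 1.42 ± 0.09 (2.67-fold) and 1.29 ± 0.09 (2.44-fold). The limma adjusted p of these 4 changes ran from 5.36e-09 to 1.49e-07.

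Trim12a and Trim12c are the mouse relatives of the primate restriction factor TRIM5. Trim12c read 6.89 and 6.80 untreated, 8.61 and 8.74 under IFN gamma/LPS, 6.31 and 6.35 under IL4/IL13, and 8.45 and 7.90 under LPS/IL4/IL13. Trim12a read 8.37 and 8.27 untreated, 9.89 and 9.78 under IFN gamma/LPS, 7.75 and 7.90 under IL4/IL13, and 9.63 and 9.34 under LPS/IL4/IL13. The 4 arrays with LPS stood highest and the IL4/IL13 arrays lowest for both, and the 2 arrays of LPS/IL4/IL13 lay further apart than those of IFN gamma/LPS. Trim12c rose by 1.83 ± 0.15 (3.56-fold) under IFN gamma/LPS and by 1.33 ± 0.15 (2.51-fold) under LPS/IL4/IL13. Trim12a rose by 1.51 ± 0.11 (2.86-fold) and by 1.17 ± 0.11 (2.24-fold), and the limma adjusted p of the 4 changes ran from 1.75e-07 to 1.18e-05. Copies within the Trim12 and Trim30 groups are close in sequence, so how the signal splits between the copies is uncertain.

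Trim21 encodes the cytosolic antibody receptor that targets antibody-coated virus for degradation. It read 8.85 and 8.72 untreated, 10.68 and 10.73 under IFN gamma/LPS, 8.70 and 8.62 under IL4/IL13, and 10.35 and 10.34 under LPS/IL4/IL13. The 3 levels did not overlap: IFN gamma/LPS was highest, LPS/IL4/IL13 lay between, and the untreated and IL4/IL13 arrays were lowest. Its rise was 1.92 ± 0.08 (3.78-fold, limma adjusted p = 1.36e-09) under IFN gamma/LPS and 1.56 ± 0.08 (2.95-fold, limma adjusted p = 1.09e-08) under LPS/IL4/IL13.

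Trim26, an E3 ligase of the major histocompatibility region, and Trim34a, a neighbour of Trim12a, rose to about the same level in both groups with LPS. Trim26 read 7.18 and 6.94 untreated, 8.20 and 8.41 under IFN gamma/LPS, 7.17 and 7.18 under IL4/IL13, and 8.54 and 8.17 under LPS/IL4/IL13. Trim34a read 6.71 and 6.75 untreated, 7.82 and 7.79 under IFN gamma/LPS, 6.64 and 6.57 under IL4/IL13, and 7.75 and 7.85 under LPS/IL4/IL13. The arrays of the 2 groups with LPS overlapped each other in both genes and lay above all other arrays. Trim26 rose by 1.25 ± 0.14 (2.37-fold) and 1.29 ± 0.14 (2.45-fold), and Trim34a by 1.07 ± 0.10 in each group, with limma adjusted p from 1.23e-06 to 6.95e-06.

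Trim25, Trim56 and Trim14, which act beside sensors of RNA and DNA, rose by less than 2-fold. Trim25, the ligase that activates the RNA sensor RIG-I, rose by 0.82 ± 0.07 under IFN gamma/LPS and 0.84 ± 0.07 under LPS/IL4/IL13. Trim56, linked to STING signalling, rose by 0.79 ± 0.10 and 0.86 ± 0.10, and Trim14, an adaptor at the mitochondrial protein MAVS, by 0.77 ± 0.08 and 0.76 ± 0.08. The limma adjusted p of these 6 changes ran from 3.73e-07 to 2.38e-05. Trim69 rose under IFN gamma/LPS alone among the tests against untreated, by 0.52 ± 0.15 (limma adjusted p = 0.0105; 0.0589 without the second untreated array, the highest over its alternatives), and was 0.28 ± 0.15 above untreated under LPS/IL4/IL13 (limma adjusted p = 0.14). Trim69 is among the dimmest 40% of named genes, and its change between the groups with LPS, -0.24 ± 0.15, did not pass (limma adjusted p = 0.348).

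Trim65, the ligase of the RNA sensor MDA5, went the other way. It read 7.95 and 7.76 untreated, 6.39 and 6.36 under IFN gamma/LPS, 7.94 and 7.93 under IL4/IL13, and 6.47 and 6.73 under LPS/IL4/IL13. The 4 arrays with LPS all lay below the other 4. It fell by 1.48 ± 0.11 (2.79-fold, limma adjusted p = 3.20e-07) under IFN gamma/LPS and by 1.25 ± 0.11 (2.39-fold, limma adjusted p = 1.79e-06) under LPS/IL4/IL13. Trim6, which makes free ubiquitin chains in interferon signalling, passed in no comparison. It read 6.00 and 6.12 untreated, 6.17 and 5.92 under IFN gamma/LPS, 5.71 and 5.84 under IL4/IL13, and 5.63 and 5.87 under LPS/IL4/IL13.

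**Figure D3:**
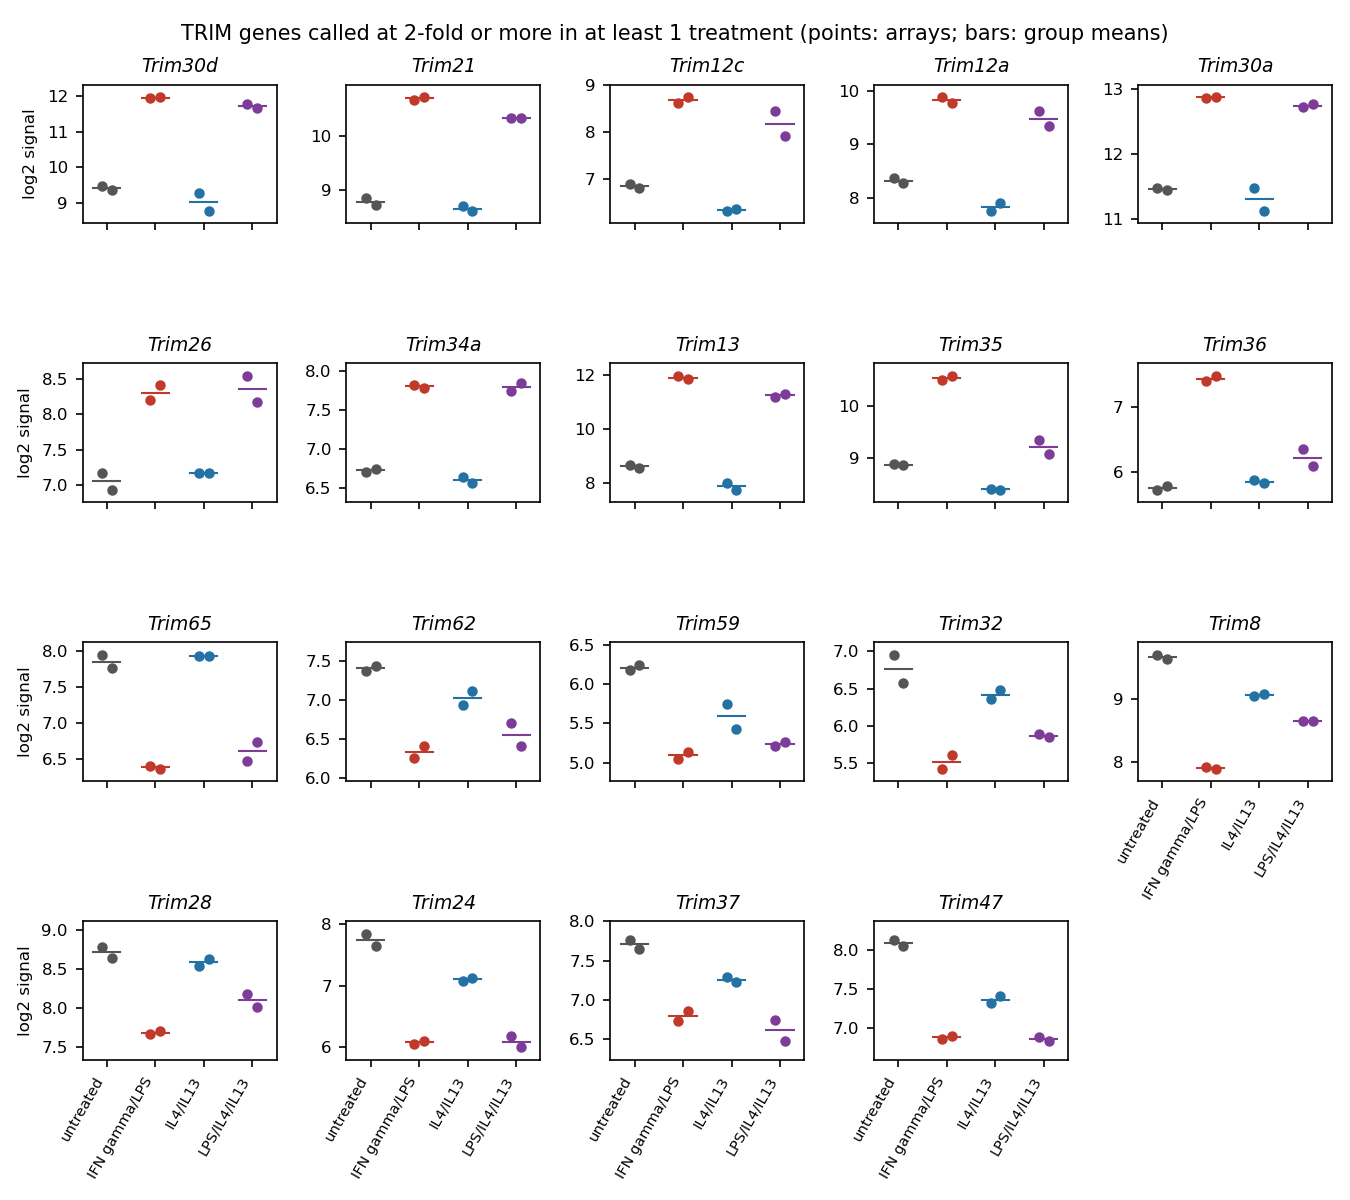
Log2 signal on each array (points) and group means (bars) of the 19 TRIM genes called at 2-fold or more against untreated in at least 1 treatment; each panel has its own axis range. The first 10 panels hold the genes that rose and the last 9 those that fell. Trim35 and Trim36 stand high under IFN gamma/LPS alone, and Trim8 lies at 4 separate levels.

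Among the 14 regulators of cytokine signalling, 2 rose (14.3%, against 23.6% of all named genes), 8 fell (57.1%, against 28.4%) and 4 did not pass under IFN gamma/LPS, with a median of -0.70. The same counts, with a median of -0.48, were found under LPS/IL4/IL13, where 20.3% of all named genes rose and 25.4% fell. Trim13, a ligase anchored in the endoplasmic reticulum, had the highest rise of all 58 members in both groups with LPS. It read 8.69 and 8.57 untreated, 11.97 and 11.85 under IFN gamma/LPS, 8.00 and 7.76 under IL4/IL13, and 11.18 and 11.32 under LPS/IL4/IL13. No 2 groups overlapped. The rise was 3.28 ± 0.10 (9.71-fold, limma adjusted p = 7.48e-11) under IFN gamma/LPS and 2.62 ± 0.10 (6.15-fold, limma adjusted p = 6.05e-10) under LPS/IL4/IL13.

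Trim35, reported to act on IRF7, read 8.88 and 8.85 untreated, 10.51 and 10.58 under IFN gamma/LPS, 8.39 and 8.38 under IL4/IL13, and 9.34 and 9.07 under LPS/IL4/IL13. IFN gamma/LPS stood far above the other 3 groups. Trim35 rose by 1.68 ± 0.10 (3.20-fold, limma adjusted p = 2.16e-08) there. Its 0.34 ± 0.10 rise under LPS/IL4/IL13 (limma adjusted p = 0.0128) did not pass without the first untreated array (adjusted p = 0.0619), the second (0.0772) or the first LPS/IL4/IL13 array (0.0706), and the adjusted p stayed at or below 0.0772 over all alternatives.

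Trim8, which binds the feedback inhibitor SOCS1 and promotes NF-kB signalling, had the deepest fall of the members under IFN gamma/LPS. It read 9.71 and 9.65 untreated, 7.92 and 7.90 under IFN gamma/LPS, 9.05 and 9.09 under IL4/IL13, and 8.65 and 8.65 under LPS/IL4/IL13. The 4 groups formed 4 levels with no overlap. Trim8 fell by 1.77 ± 0.08 (3.41-fold, limma adjusted p = 3.23e-09) under IFN gamma/LPS and by 1.03 ± 0.08 (2.04-fold, limma adjusted p = 5.38e-07) under LPS/IL4/IL13.

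Trim32, Trim59 and Trim62 fell at 2-fold or more under IFN gamma/LPS. Trim32, a ligase with NHL repeats that is mutated in a muscular dystrophy, read 6.95 and 6.58 untreated, 5.43 and 5.61 under IFN gamma/LPS, 6.36 and 6.48 under IL4/IL13, and 5.89 and 5.85 under LPS/IL4/IL13. Trim59, a membrane-anchored member, read 6.18 and 6.25 untreated, 5.05 and 5.14 under IFN gamma/LPS, 5.75 and 5.43 under IL4/IL13, and 5.21 and 5.26 under LPS/IL4/IL13. Trim62, which acts on the adaptor CARD9, read 7.37 and 7.44 untreated, 6.26 and 6.41 under IFN gamma/LPS, 6.93 and 7.11 under IL4/IL13, and 6.70 and 6.41 under LPS/IL4/IL13. In each of the 3 genes the untreated arrays were highest and the IL4/IL13 arrays second, with no overlap between those groups and the groups with LPS. The falls were 1.25 ± 0.13, 1.12 ± 0.12 and 1.07 ± 0.12 in that order under IFN gamma/LPS, with limma adjusted p from 5.80e-06 to 1.16e-05. Under LPS/IL4/IL13 they were below 2-fold, at -0.89 ± 0.13, -0.98 ± 0.12 and -0.85 ± 0.12.

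Trim23, Trim27, Trim44 and Trim68 also fell in both groups with LPS, by 0.65 to 0.82 under IFN gamma/LPS and by 0.47 to 0.77 under LPS/IL4/IL13. Trim23 carries an ARF GTPase domain, and Trim44 lacks the RING finger. Trim39 and Trim40, regulators that passed no comparison, ranged from 6.34 to 6.76 and from 5.18 to 5.56 over the 8 arrays. Trim31 and Trim38 did not pass either.

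The 4 chromatin members carry a PHD finger and a bromodomain. In each group with LPS 3 of them fell (75%) and 0 rose. Of all named genes 28.4% fell and 23.6% rose under IFN gamma/LPS, and 25.4% and 20.3% under LPS/IL4/IL13. Trim24, a nuclear receptor coregulator, read 7.84 and 7.64 untreated, 6.06 and 6.10 under IFN gamma/LPS, 7.08 and 7.12 under IL4/IL13, and 6.19 and 6.00 under LPS/IL4/IL13. Trim28, the corepressor of KRAB zinc finger proteins that silences retroelements, read 8.78 and 8.64 untreated, 7.66 and 7.70 under IFN gamma/LPS, 8.54 and 8.63 under IL4/IL13, and 8.18 and 8.01 under LPS/IL4/IL13. For Trim24 the groups with LPS overlapped and lay lowest, whereas for Trim28 LPS/IL4/IL13 lay between IFN gamma/LPS and the other arrays. Trim24 fell by 1.66 ± 0.11 (3.16-fold) and 1.65 ± 0.11 (3.13-fold), and Trim28 by 1.03 ± 0.10 (2.04-fold) and 0.61 ± 0.10, with limma adjusted p from 8.75e-08 to 0.00025. Trim33, a SMAD4 regulator, fell by 0.52 ± 0.09 in each group. Trim66 read 0.19 ± 0.11 above untreated in each and did not pass (limma adjusted p = 0.148 and 0.161).

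The role list of muscle, neuronal and epithelial members held 14. Of these, 5 rose (35.7%, against 23.6% of all named genes) and 1 fell (7.14%, against 28.4%) under IFN gamma/LPS. Under LPS/IL4/IL13, 6 rose (42.9%, against 20.3%) and 0 fell (against 25.4%). Trim36, a microtubule-binding member, read 5.72 and 5.77 untreated, 7.41 and 7.49 under IFN gamma/LPS, 5.87 and 5.82 under IL4/IL13, and 6.35 and 6.09 under LPS/IL4/IL13. As with Trim35, the IFN gamma/LPS arrays stood well above all others. Trim36 rose by 1.71 ± 0.11 (3.26-fold, limma adjusted p = 7.94e-08) under IFN gamma/LPS and by 0.47 ± 0.11 (limma adjusted p = 0.00444) under LPS/IL4/IL13. All other changes in this group were below 0.6 on the log2 scale. Under IFN gamma/LPS, Trim9, Trim10, Trim29 and Trim71 rose by 0.34 to 0.55, and under LPS/IL4/IL13, Trim10, Trim46, Trim50, Trim63 and Trim71 rose by 0.32 to 0.49. Trim63 encodes the muscle ligase MuRF1, and Trim71 is the stem cell regulator LIN41. Of the rises other than that of Trim36, those of Trim29 and Trim71 under IFN gamma/LPS and of Trim71 under LPS/IL4/IL13 passed in every alternative in which they were tested. Trim3, a neuronal NHL-repeat ligase, fell by 0.34 ± 0.08 under IFN gamma/LPS (limma adjusted p = 0.00397), and the call was lost under quantile normalization, at -0.19 (adjusted p = 0.0682). Trim67 and Trim54, which passed no comparison, ranged from 6.30 to 6.67 and from 5.51 to 5.78 over the 8 arrays.

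The 13 members in no role list had 2 higher (15.4%, against 23.6% of all named genes) and 4 lower (30.8%, near the 28.4% of all named genes) under IFN gamma/LPS. Under LPS/IL4/IL13, 1 was higher (7.69%, against 20.3%) and 4 were lower (30.8%, against 25.4%). Trim47 read 8.13 and 8.06 untreated, 6.87 and 6.90 under IFN gamma/LPS, 7.32 and 7.41 under IL4/IL13, and 6.89 and 6.84 under LPS/IL4/IL13. Trim37, a ligase with a MATH domain that is mutated in mulibrey nanism, read 7.76 and 7.65 untreated, 6.73 and 6.86 under IFN gamma/LPS, 7.29 and 7.22 under IL4/IL13, and 6.74 and 6.47 under LPS/IL4/IL13. Both genes were highest untreated, lower under IL4/IL13 and lowest in the groups with LPS, which overlapped each other. Trim47 fell by 1.21 ± 0.10 (2.31-fold) and 1.23 ± 0.10 (2.35-fold), and Trim37 by 0.91 ± 0.12 and 1.10 ± 0.12 (2.14-fold), with limma adjusted p from 3.98e-07 to 2.74e-05. Trim41 fell by 0.94 ± 0.10 and 0.90 ± 0.10, and Trim16 by 0.61 ± 0.10 and 0.87 ± 0.10. Trim58 (0.37 ± 0.11) and Trim80 (0.37 ± 0.11) rose under IFN gamma/LPS. Both calls were lost without the first untreated or the second IFN gamma/LPS array, and under quantile normalization (limma adjusted p = 0.0645 and 0.051). The Trim80 call was also lost without the second untreated array. Trim80 also rose under LPS/IL4/IL13, by 0.39 ± 0.11, and this call was lost without the second untreated array (adjusted p = 0.071) or the first LPS/IL4/IL13 array (adjusted p = 0.0743). Trim7, Trim11, Trim15, Trim42, Trim45, Trim52 and Trim75 passed in no comparison.

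IL4/IL13 alone moved the members less, and mostly downwards. Of the 16 that fell, Trim25 fell most, from 10.59 and 10.54 to 9.68 and 9.63, a drop of 0.91 ± 0.07 (1.88-fold, limma adjusted p = 1.37e-06). With LPS also present it read 11.41 on both arrays, so the RIG-I ligase lay below untreated under IL4/IL13 and above it under LPS/IL4/IL13. Trim13 fell by 0.75 ± 0.10, Trim47 by 0.73 ± 0.10, Trim24 by 0.64 ± 0.11, Trim59 by 0.62 ± 0.12 and Trim8 by 0.61 ± 0.08, with limma adjusted p from 0.00018 to 0.0037. These 6 were the falls that passed in every alternative in which they were tested. The others were Trim12a, Trim12c, Trim16, Trim23, Trim30d, Trim33, Trim35, Trim37, Trim41 and Trim62, with falls of 0.34 to 0.62. Trim30d rests on its second IL4/IL13 array: the change of -0.39 ± 0.12 (limma adjusted p = 0.0467) was -0.14 without it (adjusted p = 0.388). The call was also lost without the first or the second untreated array, and without the second IFN gamma/LPS array. It was lost too under quantile normalization (limma adjusted p = 0.0533), without the mean-variance trend (0.0939) and when adjusted over all probe sets (0.136). The count of members that fell was 7 without the first untreated array and 9 without the second IL4/IL13 array. Trim66 (0.34 ± 0.11, limma adjusted p = 0.038) and Trim71 (0.44 ± 0.12, limma adjusted p = 0.0204) were the 2 called higher, and neither passed without any single untreated or IL4/IL13 array, with adjusted p up to 0.22 and 0.125.

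When LPS/IL4/IL13 was compared with IFN gamma/LPS, the levels of 9 members differed, and Trim35, Trim36 and Trim13 were the most reduced. Of the 58 members 3 (5.17%) were higher and 6 (10.3%) lower, against 12.1% and 7.62% of all named genes. At 2-fold or more, 0 were higher and 2 (3.45%) lower, against 1.68% and 1.63%. Trim35 was lower by 1.34 ± 0.10 on the log2 scale (2.53-fold, limma adjusted p = 1.04e-06) and Trim36 by 1.23 ± 0.11 (2.35-fold, limma adjusted p = 8.23e-06). Trim13 was lower by 0.66 ± 0.10 (1.58-fold, limma adjusted p = 0.000399). Of the antiviral members, Trim21 was lower by 0.36 ± 0.08 (limma adjusted p = 0.00725), Trim12c by 0.50 ± 0.15 (limma adjusted p = 0.0353) and Trim12a by 0.35 ± 0.11 (limma adjusted p = 0.0437). The Trim12c and Trim12a calls were lost with median centring and without the mean-variance trend. They were also lost with only the 4 arrays compared and when adjusted over all probe sets. Without the second LPS/IL4/IL13 array the Trim12c difference was -0.23 and that of Trim12a -0.20, both at an adjusted p of 0.219, and neither passed without any other single array except the first LPS/IL4/IL13 array (adjusted p up to 0.228). Trim21 did not pass without the second IFN gamma/LPS array (-0.34, adjusted p = 0.0542, the highest over its alternatives).

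The other antiviral members that rose in both groups showed no difference past the threshold. The 95% confidence interval of LPS/IL4/IL13 minus IFN gamma/LPS ran from -0.12 to 0.16 for Trim25, from -0.18 to 0.16 for Trim14, from -0.22 to 0.21 for Trim34a, from -0.14 to 0.29 for Trim56, from -0.25 to 0.35 for Trim26, from -0.32 to 0.07 for Trim30a and from -0.50 to 0.04 for Trim30d. Differences of up to those bounds cannot be told from 0 with 2 arrays per group. Of the members that were higher, Trim8 gained 0.74 ± 0.08 (1.67-fold, limma adjusted p = 4.12e-05), Trim3 0.54 ± 0.08 (limma adjusted p = 0.000442) and Trim28 0.41 ± 0.10 (limma adjusted p = 0.0104). For Trim8 and Trim28 LPS/IL4/IL13 thus lay between IFN gamma/LPS and untreated. With only the 4 arrays compared, the Trim28 call was lost (limma adjusted p = 0.0567). Trim28 did not pass without the first IFN gamma/LPS array (adjusted p = 0.0671) or the first LPS/IL4/IL13 array (0.0522). Of the 6 dendritic cell markers, 1 was called lower and 2 higher under LPS/IL4/IL13 than under IFN gamma/LPS. These shares were 16.7% and 33.3%, against 7.62% and 12.1% of all named genes. The 1 lower was Xcr1, a chemokine receptor of cross-presenting dendritic cells, which moved with Trim35 and Trim36. It read 5.58 and 5.66 untreated, 7.72 and 8.02 under IFN gamma/LPS, 5.80 and 5.79 under IL4/IL13, and 5.71 and 6.08 under LPS/IL4/IL13. Cd209a, another dendritic cell marker, was 0.76 ± 0.11 higher under LPS/IL4/IL13 than under IFN gamma/LPS, and the part of other cells in the TRIM differences was not tested.

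**Figure D4:**
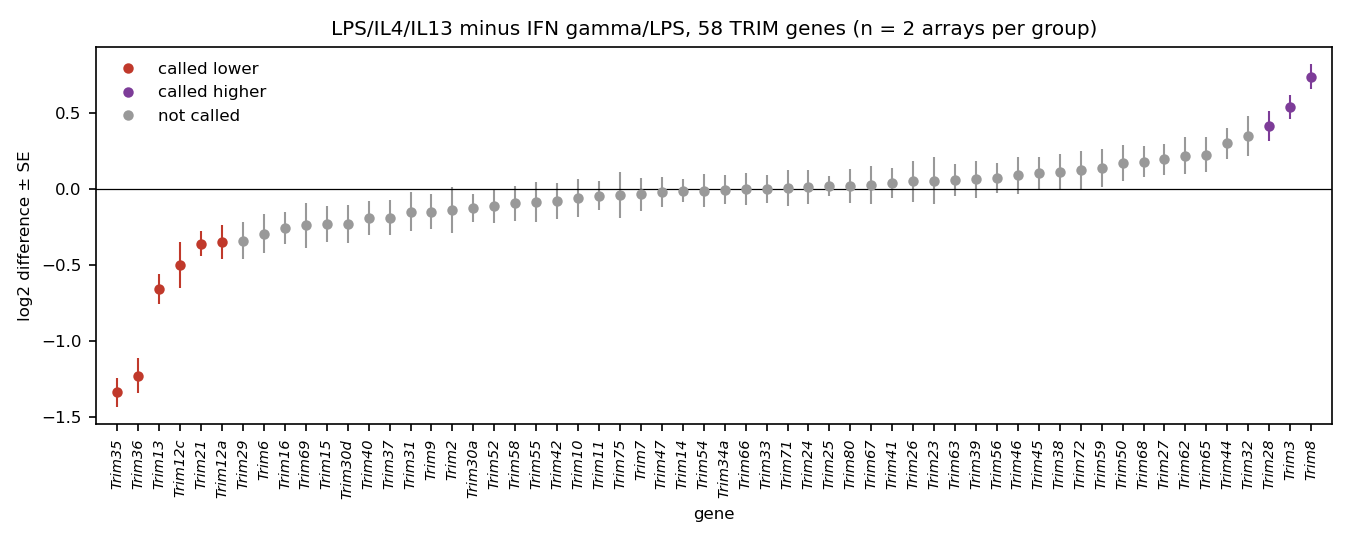
Log2 difference of LPS/IL4/IL13 minus IFN gamma/LPS for the 58 TRIM genes, ordered by size, with standard errors (n = 2 arrays per group); red marks members called lower, purple those called higher and grey those not called. Trim35 and Trim36 lie below -1, and Trim8 is highest at 0.74.

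Compared with IL4/IL13, adding LPS raised the antiviral members and Trim13. In LPS/IL4/IL13 against IL4/IL13, 13 members (22.4%) were higher and 14 (24.1%) lower, where 14.1% and 22.6% of all named genes were. At 2-fold or more 9 (15.5%) were higher and 2 (3.45%) lower, against 5.34% and 5.82%. Trim13 was higher by 3.37 ± 0.10 (10.3-fold, limma adjusted p = 9.43e-11) and Trim30d by 2.68 ± 0.12 (6.41-fold, limma adjusted p = 4.63e-09). Trim12c (1.84 ± 0.15), Trim25 (1.75 ± 0.07), Trim21 (1.69 ± 0.08), Trim12a (1.66 ± 0.11), Trim30a (1.46 ± 0.09), Trim34a (1.20 ± 0.10) and Trim26 (1.18 ± 0.14) followed, all above 2-fold. In all, 10 of the 13 antiviral and sensing members were higher and Trim65 was lower, by 1.33 ± 0.11. Trim24 was lower by 1.00 ± 0.11, Trim37 by 0.65 ± 0.12 and Trim47 by 0.50 ± 0.10. The Trim36 difference of 0.37 ± 0.11 (limma adjusted p = 0.0203) was lost without either IL4/IL13 array or the first LPS/IL4/IL13 array. With only the 4 arrays compared (limma adjusted p = 0.0505) or adjusted over all probe sets (0.0513) it was lost too.

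By domain, 29 members were listed under class C-IV, whose proteins mostly end in a PRY-SPRY domain, the part that binds the target in several antiviral TRIM proteins. The classes were assigned by gene symbol, and whether each listed member carries the domain was not checked. Of these 13 rose (44.8%, against 23.6% of all named genes) and 7 fell (24.1%, near the 28.4% of all named genes) under IFN gamma/LPS. Under LPS/IL4/IL13, 12 rose (41.4%, against 20.3%) and 7 fell (24.1%, near the 25.4% of all named genes). The 4 members with ARF, MATH or transmembrane domains had Trim13 higher (25%) and the other 3 lower (75%) in both groups. The 4 members of classes C-II and C-III had 0 called under IFN gamma/LPS and Trim63 alone, higher (25%), under LPS/IL4/IL13. Of all named genes 23.6% rose and 28.4% fell under IFN gamma/LPS, and 20.3% and 25.4% under LPS/IL4/IL13. With 4 members in each, these classes are too small to be set against those shares.

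By position, the RefSeq gene order on chromosome 7 places Trim6, Trim34a, Trim12a, Trim12c, Trim30a and Trim30d in a run of 11 protein-coding genes, 10 of them TRIM genes. Of these 6 members 5 rose at 2-fold or more in both groups with LPS, and Trim6, at one end, did not pass. Of all named genes 5.84% rose at 2-fold or more under IFN gamma/LPS and 5.18% under LPS/IL4/IL13. Trim12a and Trim12c are close copies, as are Trim30a and Trim30d, so these members are not separate cases. On chromosome 17 Trim39, Trim26, Trim15, Trim10, Trim40 and Trim31 lie within a run of 15 protein-coding genes beside H2-M genes of the major histocompatibility complex. There Trim26 rose at 2-fold or more in both groups with LPS, Trim10 rose by 0.45 ± 0.12 under IFN gamma/LPS and 0.39 ± 0.12 under LPS/IL4/IL13, and the other 4 did not pass. Both Trim10 calls were lost without the first untreated array, and that under IFN gamma/LPS also without the second IFN gamma/LPS array. The call under LPS/IL4/IL13 was also lost without either LPS/IL4/IL13 array. Quantile normalization (limma adjusted p = 0.0518) and adjusting over all probe sets (0.0545) lost it too.

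Among 10 measured genes of TRIM and related proteins under other symbols, 7 rose, 0 fell and 3 did not pass under IFN gamma/LPS. Of all named genes 23.6% rose and 28.4% fell there. Under IL4/IL13, 1 rose and 1 fell (against 7.83% and 12.3%), and under LPS/IL4/IL13, 5 rose, 0 fell and 5 did not pass (against 20.3% and 25.4%). Mefv, which encodes pyrin, rose by 2.50 ± 0.13 under IFN gamma/LPS and by 3.37 ± 0.13 under LPS/IL4/IL13, and the latter was higher by 0.86 ± 0.13 (limma adjusted p = 0.000457). Mid1, a microtubule-associated ligase, rose by 2.62 ± 0.09 under IFN gamma/LPS, 1.09 ± 0.09 under IL4/IL13 and 3.03 ± 0.09 under LPS/IL4/IL13. Rnf135, the ligase Riplet of the RIG-I pathway, rose by 2.13 ± 0.11 and 1.71 ± 0.11 in the groups with LPS, and Pml, the organiser of nuclear bodies, by 2.04 ± 0.08 and 1.95 ± 0.08.

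The sensing pathway on which several TRIM ligases act also changed. Of 11 measured genes of RIG-I and STING sensing, 9 rose (81.8%) and 2 fell (18.2%) in each group with LPS, with medians of 1.57 under IFN gamma/LPS and 1.46 under LPS/IL4/IL13. Of all named genes 23.6% rose and 28.4% fell under IFN gamma/LPS, and 20.3% and 25.4% under LPS/IL4/IL13. Ifih1, the MDA5 sensor and target of Trim65, rose by 3.38 ± 0.07 and 3.08 ± 0.07, and Dhx58, the sensor LGP2, by 3.16 ± 0.08 and 3.10 ± 0.08. Irf7, the interferon transcription factor, rose by 2.48 ± 0.08 and 2.56 ± 0.08, while Mavs, the adaptor of both RNA sensors, fell by 2.38 ± 0.10 and 2.00 ± 0.10. All 4 measured genes of ISG15 conjugation rose in both groups. Usp18, which removes ISG15, rose by 4.13 ± 0.11 and 4.30 ± 0.11, the ligase Herc6 by 3.35 ± 0.10 and 3.29 ± 0.10, the conjugating enzyme Ube2l6 by 2.12 ± 0.07 and 2.03 ± 0.07, and the activating enzyme Uba7 by 1.28 ± 0.09 and 1.08 ± 0.09.

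Of 13 measured genes of interferon signalling, 9 rose (69.2%, against 23.6% of all named genes) and 4 fell (30.8%, near the 28.4% of all named genes) under IFN gamma/LPS. Under IL4/IL13, 4 rose and 4 fell (30.8% each, against 7.83% and 12.3%), and under LPS/IL4/IL13, 11 rose (84.6%, against 20.3%) and 1 fell (7.69%, against 25.4%). Socs1, the feedback inhibitor that Trim8 binds, rose by 3.94 ± 0.12, 3.74 ± 0.12 and 3.76 ± 0.12 in the 3 treatments in that order. Jak2 rose by 3.31 ± 0.10, 0.96 ± 0.10 and 3.30 ± 0.10, and Stat2 by 2.77 ± 0.09, 1.15 ± 0.09 and 2.81 ± 0.09. Irf1, an IRF factor induced by IFN gamma, rose by 3.19 ± 0.08, 1.20 ± 0.08 and 2.05 ± 0.08, and was lower by 1.14 ± 0.08 on the log2 scale under LPS/IL4/IL13 than under IFN gamma/LPS (limma adjusted p = 5.76e-07).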

How the data were processed

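Total RNA with a biotin label was read on 8 arrays, per the labels, and the table gives each probe set's value on each. The deposited values run from 1.46 to 13.71, which is a log2 scale read from the values, although the labels name a MAS5 signal, and no further log was taken. The authors' normalization between arrays is not given in the sources used here. No detection calls were used, so no level marks a gene as absent, and precision is limited by 2 arrays per group.

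Of 35556 probe sets 21789 carry 1 symbol in the platform annotation, 1621 several and 12146 none. The brightest probe set stood for a gene, giving 19938 named genes. All 58 members matched RefSeq symbols (GRCm38.p6). Promoter windows were missing for 12 members (Trim3, Trim8, Trim11, Trim14, Trim16, Trim29, Trim33, Trim35, Trim36, Trim50, Trim55 and Trim65). A further element searched in these windows is not reported here.

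All 4 groups entered 1 limma model (version 3.58.1, R 4.3.3) of group means, with contrasts and moderated variances that follow a mean-variance trend (eBayes; 4 residual and 7.55 prior degrees of freedom), tested first on simulated data. P-values of each of 5 comparisons were corrected over the named genes (Benjamini-Hochberg) and called at an adjusted p under 0.05. Values on every array are given for members called at 2-fold or more against untreated. Up to 2 members per role that passed no comparison and up to 4 genes per pathway are named. The members, role, pathway and marker lists were chosen with earlier results of these data known. The 16 alternatives cover normalization, centring, the variance model, the arrays fitted, the replicate number, probe sets per gene, dim genes, the features adjusted over and each array left out.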

Additional observations from a re-analysis of the deposited data

Results flagged for a closer look

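Outside the comparisons lay 7 probe sets, which the platform annotation ties to several symbols or to a TRIM pseudogene. Of these, 4 were called higher than untreated in both groups with LPS (limma, adjusted over all probe sets). The share of all probe sets called higher was not taken. Of the named genes, 23.6% were higher under IFN gamma/LPS and 20.3% under LPS/IL4/IL13. All 4 belong to the Trim30 or the Trim5 and Trim12 copies, so they are not separate cases. The probe set of Gm38525 and Trim30b, in the Trim30 cluster, read 5.32 and 5.34 untreated, 9.40 and 9.45 under IFN gamma/LPS, 5.12 and 4.87 under IL4/IL13, and 9.82 and 9.95 under LPS/IL4/IL13. Its log2 difference from untreated was 4.09 under IFN gamma/LPS and 4.55 under LPS/IL4/IL13. The probe set of the pseudogene Trim30e-ps1 differed by 1.39 and 1.11 in the same order, one shared by Trim5, Trim12c and Trim12a by 0.96 and 0.77, and one shared by Trim5 and Trim12c by 0.96 and 0.85. The probe set of Trim61 and Trim60 differed by 0.33 and 0.25 and that of Trim43b, Trim43c and Trim43a by 0.12 and -0.18, and neither passed. The probe set of H2aw and Trim17 differed by -0.15, which did not pass, and by -0.27 (limma adjusted p = 0.0452). The gene behind a shared signal is not given by the annotation.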

How the results depend on the processing

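No call of a member changed direction under the 16 alternatives. The counts under IFN gamma/LPS and LPS/IL4/IL13 against untreated, and under LPS/IL4/IL13 against IL4/IL13, stayed within 1.5 times. Adjusting over all probe sets gave 10 members called under IL4/IL13 against untreated in place of 18, with 10 lower and 0 higher. Quantile normalization, median centring and leaving out dim genes each gave 1 higher in place of 2, and leaving out dim genes gave 5 in place of 3 members higher in LPS/IL4/IL13 against IFN gamma/LPS. With each array left out in turn, the IL4/IL13 count ran from 7 to 18, its higher calls from 0 to 2 and its lower calls from 7 to 16. The fewest were found without the first untreated array (7), and 11 and 9 members were called without the second untreated and the second IL4/IL13 array. In LPS/IL4/IL13 against IFN gamma/LPS the lower calls ran from 3 (without the second IFN gamma/LPS array) to 7. Leaving out single arrays gave 33 to 38 calls under IFN gamma/LPS, 29 to 36 under LPS/IL4/IL13 and 24 to 27 in LPS/IL4/IL13 against IL4/IL13. The replicate block, which treats arrays of the same number as paired, gave 37, 17, 35, 9 and 26 calls in the 5 comparisons in place of 37, 18, 35, 9 and 27. Deviations of same-numbered arrays correlated at -0.358 to 0.217 between groups, so the numbers were not taken as pairs. Of the members, 25 lay among the dimmest 40% of named genes, where small changes are least certain.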
